A study of Mus musculus with 15 samples.

Results

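The genes described here are 10 collagen genes measured in mouse liver under 3 diets: the fibrillar collagens Col1a1, Col1a2, Col3a1, Col5a1 and Col5a2, the basement membrane collagens Col4a1 and Col4a2, the beaded-filament collagens Col6a1 and Col6a3, and the fibril-associated collagen Col14a1. They were taken by gene symbol from the count files, which list 23420 genes. No expression threshold was applied, but earlier results of these data were known when the genes were chosen. The livers came from male C57Bl/6J mice, and the series concerns how fatty liver alters the handling of tetrachloroethylene, a chlorinated solvent. MCD mice ate a 31% fat diet without sufficient methionine, choline and folate, HFD mice ate a 31% fat diet, and BD mice ate a base diet with 4% fat, with 5 libraries per diet. The mice of all 3 groups had been given vehicle only, 5% Alkmauls El-620 in saline, and were sampled 24 hours later. The labels give neither age nor the length of feeding. The libraries were made from polyadenylated RNA of the pulverised left lobe, so every cell type of the liver contributed, and a larger number of collagen-making cells cannot be told apart from more collagen RNA per cell. Collagen protein and histological scarring were not analysed here.

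Collagens are secreted proteins of the extracellular matrix, built as triple helices of chains that carry glycine at every step of a repeat. Fibrillar collagens form the tension-bearing fibres of scar tissue, type IV collagen forms the sheet-like network of basement membranes, type VI collagen forms microfilaments around cells, and type XIV collagen sits on the surface of fibrils. In liver, hepatic stellate cells that turn into myofibroblasts, together with portal fibroblasts, are known as the main makers of fibrillar collagen, while endothelial cells also make type IV collagen. A methionine- and choline-deficient diet is a widely used means of producing steatohepatitis with scarring in mice, and high-fat feeding alone is known for steatosis with little scarring.

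Library depth ranged from 3704642 to 23131089 gene counts. Levels are given as CPM, gene counts scaled to library size and to TMM factors, and 3 counts corresponded to 0.118 to 0.851 CPM depending on the library. BD libraries carry sample numbers in their titles away from those of the MCD and HFD libraries, which run on from each other, so any processing step that followed the numbering and the base diet cannot be told apart. The labels do not state that each library is a separate animal, and p-values measure the spread between these libraries. Reads aligned to several places amounted to 1.19 to 1.66 per gene count in MCD, 1.15 to 2.53 in HFD and 1.49 to 2.80 in BD libraries. HFD replicate 2 had the lowest such value and stood apart from the other HFD libraries in the collagen genes, so the calls of the 10 genes against HFD are given with and without it. It was singled out with these collagen levels known, so fits without it are a description and no independent support. The hepatocyte markers Alb, Ttr, Apoa1, Apoh, Fgb and Hnf4a summed to 111153 to 156084 CPM in MCD, 109210 to 135036 CPM in HFD and 122425 to 140573 CPM in BD libraries.

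The 10 genes lie on 7 chromosomes of the mouse genome (GRCm38, GENCODE M21 gene models). Col1a1 is on chromosome 11 (94936224 to 94953042), Col1a2 on chromosome 6 (4504814 to 4541544), Col5a1 on chromosome 2 (27886425 to 28039514), Col6a1 on chromosome 10 (76708792 to 76726168) and Col14a1 on chromosome 15 (55307750 to 55520803). Col3a1 (45311538 to 45349706) and Col5a2 (45374321 to 45503282) are neighbours on opposite strands of chromosome 1, with 24614 bases between them, and Col6a3 (90765923 to 90843971) lies farther along that chromosome. Col4a1 (11198423 to 11312826) and Col4a2 (11312805 to 11449287) lie head to head on chromosome 8, transcribed away from a shared start region in which the gene models overlap by 22 bases on opposite strands. Annotated noncoding or uncharacterised transcripts overlap 8 of the 10 genes, and none of these transcripts has a row of its own in the count files.

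The start regions of 4 of the collagen genes are shown: a type I and a type III fibrillar gene, and the 2 type IV genes that share their start region. They are also the windows, among the 7 available, that hold a CCAAT or TATAAA match on either strand. Any relation of these sequences to the rise in MCD livers was not tested. Each window runs from 250 bases before to 50 bases after the RefSeq transcription start (GRCm38.p6) and is written 5′ to 3′ on the strand of its gene, with capitals marking CCAAT or its reverse complement ATTGG and TATAAA or its reverse complement TTTATA.
Col1a2, chr6:4505368-4505667, plus strand: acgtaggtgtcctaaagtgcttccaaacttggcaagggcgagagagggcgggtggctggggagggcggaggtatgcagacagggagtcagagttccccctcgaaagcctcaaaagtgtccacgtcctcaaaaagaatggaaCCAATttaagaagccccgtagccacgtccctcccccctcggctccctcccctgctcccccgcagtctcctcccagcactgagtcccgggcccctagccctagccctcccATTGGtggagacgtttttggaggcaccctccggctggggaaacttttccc
Col3a1, chr1:45311288-45311587, plus strand: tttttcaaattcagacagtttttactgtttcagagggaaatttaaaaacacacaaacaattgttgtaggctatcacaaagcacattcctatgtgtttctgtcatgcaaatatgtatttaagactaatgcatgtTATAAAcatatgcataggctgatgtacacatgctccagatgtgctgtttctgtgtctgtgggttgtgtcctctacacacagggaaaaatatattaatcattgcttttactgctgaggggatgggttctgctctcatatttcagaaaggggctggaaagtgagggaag
Col4a1, chr8:11312777-11313076, minus strand: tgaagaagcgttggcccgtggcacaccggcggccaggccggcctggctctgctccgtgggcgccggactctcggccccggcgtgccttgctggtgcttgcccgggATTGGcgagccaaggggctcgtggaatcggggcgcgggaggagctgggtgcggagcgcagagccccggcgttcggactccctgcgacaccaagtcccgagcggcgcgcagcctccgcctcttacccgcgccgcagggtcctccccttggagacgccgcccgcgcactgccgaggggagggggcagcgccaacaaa
Col4a2, chr8:11312555-11312854, plus strand: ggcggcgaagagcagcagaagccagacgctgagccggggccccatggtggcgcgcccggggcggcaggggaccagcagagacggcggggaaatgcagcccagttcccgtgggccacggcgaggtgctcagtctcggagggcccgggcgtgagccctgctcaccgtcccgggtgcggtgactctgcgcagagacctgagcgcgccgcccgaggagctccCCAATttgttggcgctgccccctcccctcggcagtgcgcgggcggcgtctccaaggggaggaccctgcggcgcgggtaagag
The Col1a2 window starts inside the GENCODE gene model, because the RefSeq start lies downstream of the GENCODE one. A CCAAT match on either strand was present in the windows of Col1a2 (first bases at -109 and 1 relative to the start), Col4a1 (-145) and Col4a2 (-32), and 37.4% of 32851 RefSeq promoter windows hold one. TATAAA was found at -117 in Col3a1 alone among the 7 collagen genes with a window, against 13.6% of all windows. GGGCGG or its reverse complement CCGCCC, not capitalised, occurred 2 times each in Col1a2 and Col5a1, 1 time in Col4a1 and 3 times in Col4a2, against 35.7% of all windows with at least 1. The Col6a1 and Col6a3 windows held none of the 3 motifs. The Col3a1 window had 37.7% G and C bases, while the Col1a2, Col4a1 and Col4a2 windows had 61.0%, 74.0% and 73.7%. The Col4a1 and Col4a2 windows share 78 bases, read on opposite strands. The matches describe these letters only and were not related to binding of any factor.

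All 10 collagen genes rose in MCD livers relative to BD livers, by 1.70-fold for Col4a2 to 7.51-fold for Col1a1, at an adjusted p under 0.05 in edgeR's quasi-likelihood test over 12193 genes. Across all genes tested, 12.8% were called higher in MCD than in BD livers. The largest fold changes belonged to the type I and type III fibrillar chains and to Col5a2, and the smallest to Col4a2 and Col5a1. The median log2 fold change of the 10 genes was 1.30, against -0.03 for all genes tested.

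Col1a1, which encodes the alpha-1 chain of type I collagen, stood at 38.1, 24.7, 22.8, 69.3 and 55.1 CPM in MCD replicates 1 to 5, at 10.5, 26.5, 6.39, 5.50 and 9.43 CPM in HFD replicates 1 to 5, and at 3.97, 7.01, 6.12, 4.26 and 5.66 CPM in BD replicates 1 to 5. Every MCD library lay above every BD library, and one HFD library, replicate 2, lay inside the MCD range. The mean was 42.0 ± 19.99 CPM in MCD and 5.40 ± 1.28 CPM in BD livers (SD, n = 5 each), a log2 fold change of 2.91 ± 0.45 (SE, edgeR adjusted p = 4.88e-04). This fold change ranked 38 among the 12193 genes tested. The BD values rest on 14 to 120 counts per library, the MCD values on 238 to 1205.

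Col1a2, which encodes the partner chain of type I collagen, stood at 68.6, 54.9, 33.8, 99.5 and 72.4 CPM in the MCD libraries, at 21.6, 41.3, 17.3, 11.8 and 18.6 CPM in the HFD libraries, and at 11.1, 14.2, 14.6, 12.8 and 14.99 CPM in the BD libraries. MCD and BD livers again did not overlap. The BD libraries were tightly grouped, with a coefficient of variation of 11.9%, against 36.7% in MCD and 51.1% in HFD livers. The log2 fold change of Col1a2 in MCD against BD was 2.26 ± 0.32 (SE, edgeR adjusted p = 2.26e-04). Col3a1, the single chain of type III collagen, had 199.8, 135, 109, 295 and 192 CPM in MCD, 65.6, 115, 41.0, 40.9 and 61.7 CPM in HFD, and 39.7, 41.9, 39.8, 36.5 and 52.3 CPM in BD libraries. MCD replicate 4 was the highest library and MCD replicate 3 the lowest MCD library for Col1a1, Col1a2 and Col3a1 alike. The log2 fold change of Col3a1 in MCD against BD was 2.14 ± 0.31 (SE, edgeR adjusted p = 2.47e-04).

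The type V chains, which are known to co-assemble with type I collagen and to limit fibril diameter, are encoded by Col5a1 and Col5a2 among the genes measured here. Col5a2 had 15.7, 10.4, 7.49, 18.2 and 13.6 CPM in MCD, 5.31, 7.83, 3.55, 3.23 and 4.45 CPM in HFD, and 2.84, 3.40, 2.93, 2.27 and 6.13 CPM in BD libraries. The MCD libraries lay above all BD libraries, although BD replicate 5 came near the lowest of them. Its log2 fold change in MCD against BD was 1.81 ± 0.30 (SE, edgeR adjusted p = 4.30e-04). Col5a1 had 19.3, 12.1, 19.8, 27.6 and 25.9 CPM in MCD, 15.2, 13.1, 8.05, 8.68 and 11.7 CPM in HFD, and 11.3, 12.3, 12.6, 12.1 and 9.99 CPM in BD libraries. MCD replicate 2 fell inside the BD range, so the diets overlapped for this gene. Col5a1 rose by a log2 fold change of 0.85 ± 0.20 (SE, edgeR adjusted p = 0.00453) in MCD against BD.

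**Figure D1:**
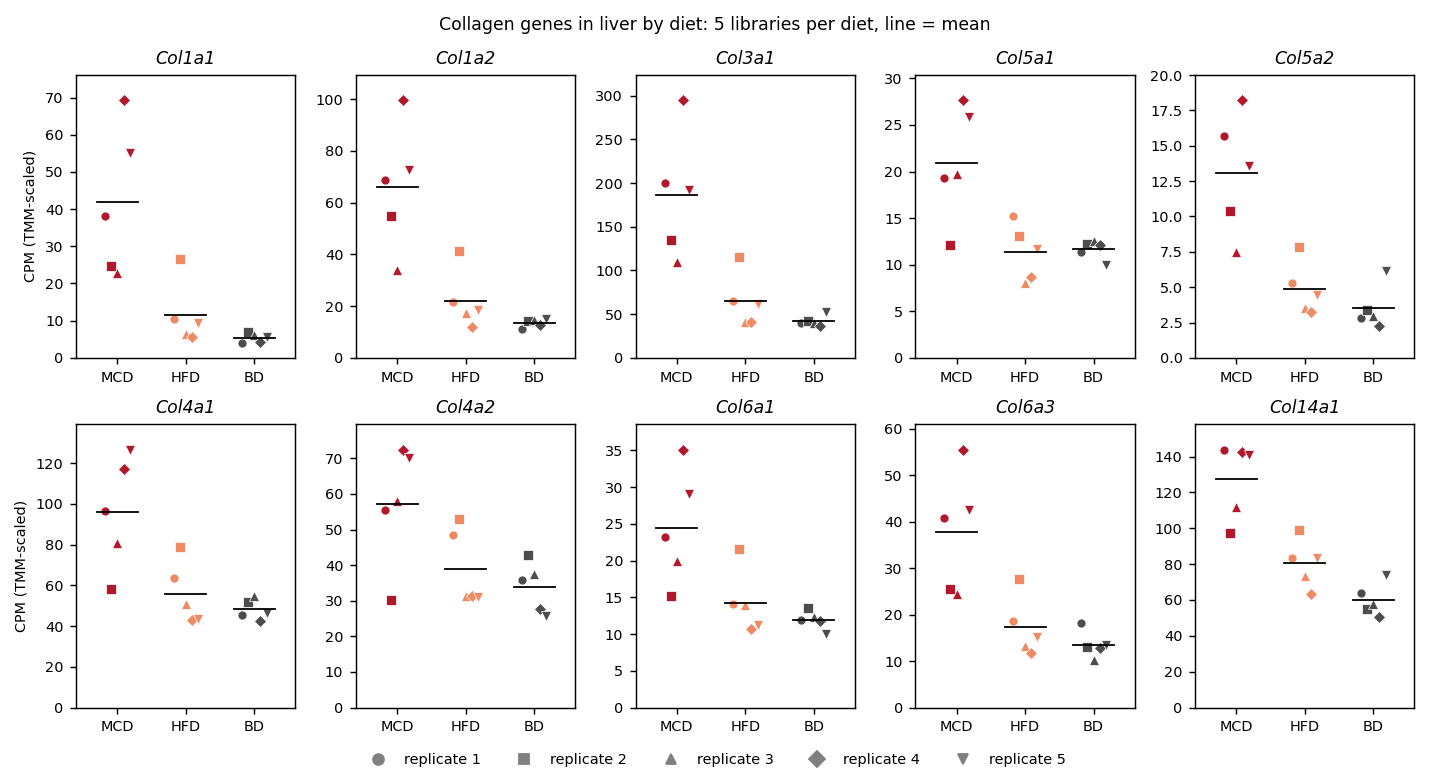
TMM-scaled CPM of each of the 10 collagen genes in every library (points) by diet, MCD, HFD and BD from left to right, with the mean of 5 libraries as a line; each panel has its own vertical axis from 0. The MCD points lie above all BD points except for Col5a1 and Col4a2, and the highest HFD point of 9 genes is replicate 2.

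Col4a1 and Col4a2, whose chains join in the main network of basement membranes, had smaller fold changes than the type I and III chains. Col4a1 had 96.7, 58.2, 80.9, 117 and 126.5 CPM in MCD, 63.6, 78.7, 50.9, 43.1 and 43.4 CPM in HFD, and 45.4, 51.9, 54.7, 42.6 and 46.7 CPM in BD libraries. The lowest MCD value was above the highest BD value by a small margin, and the log2 fold change in MCD against BD was 0.99 ± 0.20 (SE, edgeR adjusted p = 0.00190). Col4a2 had 55.4, 30.2, 58.1, 72.4 and 70.0 CPM in MCD, 48.5, 53.01, 31.3, 31.3 and 31.1 CPM in HFD, and 35.7, 42.9, 37.5, 27.7 and 25.6 CPM in BD libraries. MCD replicate 2 lay among the BD libraries. The log2 fold change of 0.76 ± 0.23 (SE, edgeR adjusted p = 0.0250) lost its call when MCD replicate 4, MCD replicate 5, BD replicate 4 or BD replicate 5 was left out, with edgeR adjusted p of 0.0666, 0.0575, 0.0618 and 0.0598 in that order. Reads in the 22 bases that the 2 genes share could not be assigned by position alone, and the counting mode is not given in the sources used here.

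Col6a1 and Col6a3 encode chains of type VI collagen. Col6a1 had 23.2, 15.2, 19.9, 35.1 and 29.0 CPM in MCD, 14.1, 21.6, 14.0, 10.7 and 11.2 CPM in HFD, and 11.9, 13.6, 12.3, 11.8 and 10.04 CPM in BD libraries. Col6a3 had 40.8, 25.5, 24.5, 55.5 and 42.5 CPM in MCD, 18.5, 27.6, 13.3, 11.8 and 15.1 CPM in HFD, and 18.2, 12.99, 10.2, 12.8 and 13.6 CPM in BD libraries. For both genes every MCD library lay above every BD library. The log2 fold changes in MCD against BD were 1.04 ± 0.21 for Col6a1 (SE, edgeR adjusted p = 0.00199) and 1.51 ± 0.26 for Col6a3 (SE, edgeR adjusted p = 6.12e-04). Col14a1, which coats fibrils and is known to act in fibril growth, had 144, 97.6, 112, 143 and 141 CPM in MCD, 83.2, 98.8, 73.2, 63.3 and 83.3 CPM in HFD, and 63.8, 54.95, 57.6, 50.3 and 74.2 CPM in BD libraries. It showed the least spread within MCD of the 10 genes, with a coefficient of variation of 16.7% in MCD, 16.5% in HFD and 15.3% in BD livers. Its log2 fold change of 1.08 ± 0.14 (SE) in MCD against BD had the smallest edgeR adjusted p of the 10, 3.95e-05.

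For 8 of the 10 genes the MCD and BD libraries did not overlap, against 9.32% of all genes tested with MCD wholly above BD. A log2 fold change of at least 1 was reached by 7 of the 10, against 5.67% of all genes tested. DESeq2 and limma-voom each called all 10 as well, with 13.5% and 12.5% of all genes called higher. Adding the number of multiply aligned reads per gene count as a covariate left 8 of the 10 called, against 9.15% of all genes called higher, ending the calls of Col5a1 (edgeR adjusted p = 0.0768) and Col4a2 (edgeR adjusted p = 0.224).

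**Figure D2:**
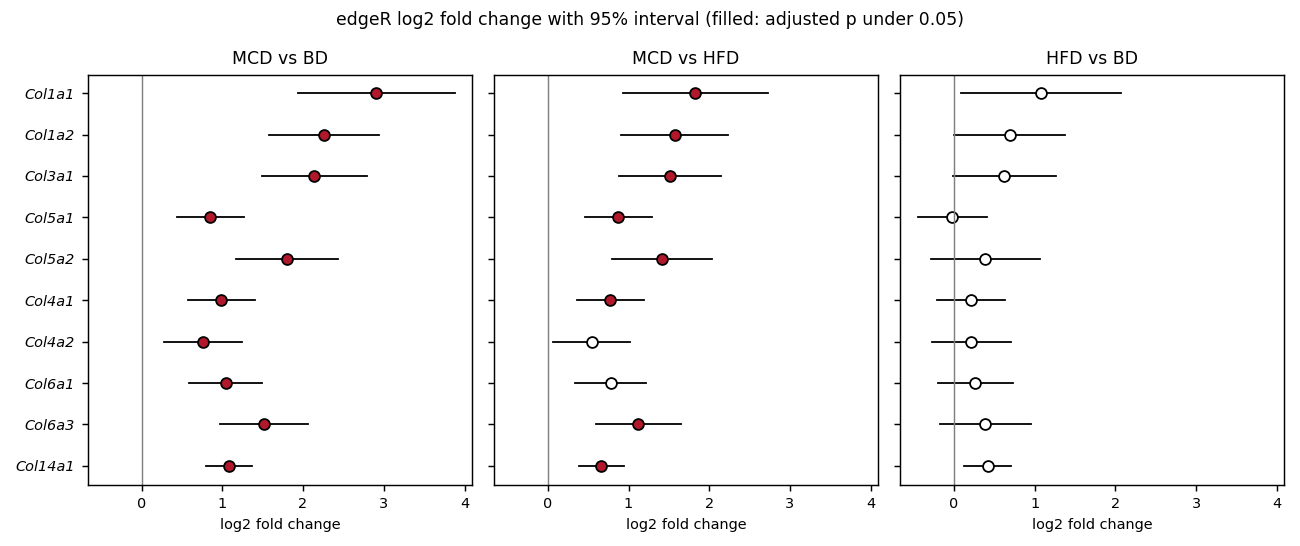
Log2 fold change of each collagen gene from edgeR with its 95% interval, for MCD against BD, MCD against HFD and HFD against BD; filled points have an adjusted p under 0.05 over 12193 genes. There are 10 filled points for MCD against BD, 8 for MCD against HFD and 0 for HFD against BD.

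At equal fat content, MCD livers exceeded HFD livers in 8 of the 10 genes at an edgeR adjusted p under 0.05, where 2.22% of all genes tested were called higher. The median log2 fold change of the 10 genes was 0.998, against -0.003 for all genes tested. Col1a1 rose by 1.83 ± 0.42 (SE, log2, edgeR adjusted p = 0.0338), Col1a2 by 1.57 ± 0.31 (edgeR adjusted p = 0.0169) and Col3a1 by 1.52 ± 0.30 (edgeR adjusted p = 0.0170). Col5a2 rose by 1.42 (edgeR adjusted p = 0.0170), Col6a3 by 1.12 (edgeR adjusted p = 0.0258), Col5a1 by 0.87 (edgeR adjusted p = 0.0230), Col4a1 by 0.78 (edgeR adjusted p = 0.0418) and Col14a1 by 0.66 (edgeR adjusted p = 0.0151). Col6a1 had a log2 fold change of 0.78 (95% interval 0.34 to 1.22, edgeR adjusted p = 0.0515) and Col4a2 one of 0.55 (95% interval 0.07 to 1.02, edgeR adjusted p = 0.184), and neither was called. For none of the 10 genes did the MCD and HFD libraries separate completely, because HFD replicate 2 was at or above the lowest MCD library in all 10. A complete separation with MCD higher was found in 2.49% of all genes tested.

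These calls depended on single libraries. The number of the 10 genes called in MCD against HFD was 1 without HFD replicate 4, where 0.456% of all genes were called higher, and 3 without MCD replicate 1, where 0.729% were. It was 4 without MCD replicate 4, MCD replicate 5, HFD replicate 3 or HFD replicate 5, where 0.875%, 1.32%, 0.978% and 0.873% of all genes were called higher in that order. It was 5 without HFD replicate 1, where 123 genes in all were called higher against 271 in the fit of 15 libraries. It was 7 to 9 without each of the others, where 236 to 839 genes in all were called higher. Col1a2 kept its call in every one of these 15 fits, with a highest edgeR adjusted p of 0.0497. In the fit with multiply aligned reads as a covariate, none of the 10 was called and 0.525% of all genes were called higher. In a fit of the MCD and HFD libraries alone, 2 of the 10 were called, against 1.41% of all genes called higher. All 10 had an unadjusted edgeR p under 0.05 in the fit of 15 libraries, where 11.1% of all genes did with MCD higher.

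None of the 10 genes was called in HFD against BD livers by edgeR, where 3.65% of all genes tested were called higher, and none by limma-voom, which called 3.08% of all genes higher. Nor were the HFD libraries wholly above the BD libraries for any of the 10, against 3.49% of all genes. DESeq2 called Col14a1 (adjusted p = 0.0490), where it called 5.09% of all genes higher. An unadjusted edgeR p under 0.05 was found for Col1a1, Col1a2 and Col14a1, against 10.8% of all genes with HFD higher. The log2 fold change was above 0 for 9 of the 10 genes, against 48.8% of all genes, and its median was 0.39, against -0.01 for all genes. Col14a1 had a log2 fold change of 0.42 ± 0.14 (SE, 95% interval 0.13 to 0.70, edgeR adjusted p = 0.0769), and it passed the threshold when MCD replicate 2 (edgeR adjusted p = 0.0462), HFD replicate 4 (0.0378) or BD replicate 5 (0.0296) was left out. Col1a1 had a log2 fold change of 1.08 ± 0.46 (SE, 95% interval 0.09 to 2.07, edgeR adjusted p = 0.202). Without HFD replicate 2 none of the 10 was called in HFD against BD by edgeR, where 338 of the 12340 genes tested were called higher. In that fit the median log2 fold change of the 10 genes was 0.16, and the value was 0.52 for Col1a1 (edgeR adjusted p = 0.524), 0.33 for Col1a2, 0.32 for Col3a1 and 0.34 for Col14a1. Col5a1 had the smallest difference, -0.02 (95% interval -0.45 to 0.41, edgeR adjusted p = 0.9747), and its sign turned positive without scaling factors (0.05) and under the stricter count filter (0.01). The intervals of the other genes reached up to 1.38 for Col1a2 and 1.26 for Col3a1, so changes of up to that size lie within what 5 libraries per diet allow.

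The HFD livers differed among themselves most in the type I and III genes, with a coefficient of variation of 73.4% for Col1a1, 51.1% for Col1a2 and 46.8% for Col3a1, against 16.5% to 37.8% for the other 7. HFD replicate 2 was the highest HFD library for 9 of the 10 genes, the exception being Col5a1, and it was above the highest BD library for all 10. Its level relative to the mean of the other 4 HFD libraries was 3.34-fold for Col1a1, 2.39-fold for Col1a2, 2.20-fold for Col3a1, 1.49-fold for Col4a2, 1.31-fold for Col14a1 and 1.20-fold for Col5a1. HFD replicate 1 was above the highest BD library for 9 of the 10 genes, replicate 5 for 4, replicate 3 for 2 and replicate 4 for 0. HFD replicate 4 was the lowest HFD library for 8 of the 10. With HFD replicate 2 left out, MCD and HFD no longer overlapped for Col1a1, Col1a2, Col3a1, Col5a2, Col6a1, Col6a3 and Col14a1, that is 7 of the 10 genes against 7.00% of all genes tested, and 9 of the 10 were called by edgeR against 6.80% of all genes. The median log2 fold change of the 10 genes in MCD against HFD was then 1.19, with 2.42 for Col1a1, 1.95 for Col1a2 and 1.84 for Col3a1, and Col4a2 was the gene not called. HFD replicate 2 was left out with its high collagen levels known. Its removal lowers the HFD means of these genes, which by itself widens their gap to MCD. The counts without it are therefore no independent support for a difference. Among the MCD libraries, replicate 4 was highest for 8 of the 10 genes, and replicates 2 and 3 were the lowest for 5 each.

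Summed over the 10 genes, collagen counts amounted to 671 ± 197 CPM in MCD, 322 ± 100.2 CPM in HFD and 244 ± 18.2 CPM in BD livers (SD, n = 5 each). The sum ranged from 463 to 932 CPM in MCD, from 230 to 484 CPM in HFD and from 213 to 259 CPM in BD libraries. As a share of all gene counts this was 0.0455% to 0.0983% in MCD, 0.0228% to 0.0497% in HFD and 0.0204% to 0.0247% in BD. The BD libraries thus spanned a narrow band, and the spread within the MCD and HFD groups was several times wider.

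Levels of different genes were compared only after division by transcript length, as CPM per kilobase (kb) of the longest protein-coding GENCODE M21 transcript. In MCD livers the order of mean level per length was Col3a1 (33.4 ± 12.9 CPM per kb), Col14a1 (19.7 ± 3.30), Col4a1 (14.5 ± 4.17), Col1a2 (12.3 ± 4.52), Col4a2 (8.87 ± 2.603), Col1a1 (7.08 ± 3.37), Col6a1 (5.97 ± 1.89), Col6a3 (3.74 ± 1.28), Col5a1 (2.49 ± 0.73) and Col5a2 (1.97 ± 0.64). The mean ± SD ranges of each pair of neighbours in this order overlapped. In HFD livers Col14a1 led with 12.4 ± 2.05 CPM per kb, followed by Col3a1 with 11.7 ± 5.46, values that overlap within their SD, by Col4a1 with 8.46 ± 2.30 and by Col4a2 with 6.05 ± 1.68. The lowest HFD means were those of Col5a1, 1.35 ± 0.356 CPM per kb, and Col5a2, 0.736 ± 0.278 CPM per kb. In BD livers Col14a1 also led with 9.32 ± 1.43 CPM per kb, with Col3a1 at 7.56 ± 1.09 and Col4a1 at 7.29 ± 0.745, and Col1a1 stood last but one with 0.911 ± 0.215, before Col5a2 with 0.530 ± 0.229.

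Taking the level per length of the 10 genes as the whole, Col3a1 made up 29.9 ± 3.74% in MCD, 21.7 ± 3.33% in HFD and 19.3 ± 1.90% in BD livers (SD, n = 5 each). Col1a2 made up 11.1 ± 2.004% in MCD, 7.64 ± 1.37% in HFD and 6.49 ± 0.659% in BD livers, and Col1a1 6.17 ± 1.23%, 3.47 ± 1.28% and 2.32 ± 0.443% in the same order of diets. The MCD and BD ranges of these 3 shares did not overlap. The shares of the type IV genes ran the other way, with Col4a1 at 13.3 ± 1.95% in MCD, 16.5 ± 1.87% in HFD and 18.7 ± 1.44% in BD livers and Col4a2 at 8.17 ± 2.001%, 11.8 ± 1.497% and 13.5 ± 2.54%. Col6a3 held 3.36 ± 0.194% in MCD, 3.25 ± 0.133% in HFD and 3.45 ± 0.792% in BD livers. These shares add up to a fixed total, so a rise in one lowers the others, and they were not tested.

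**Figure D3:**
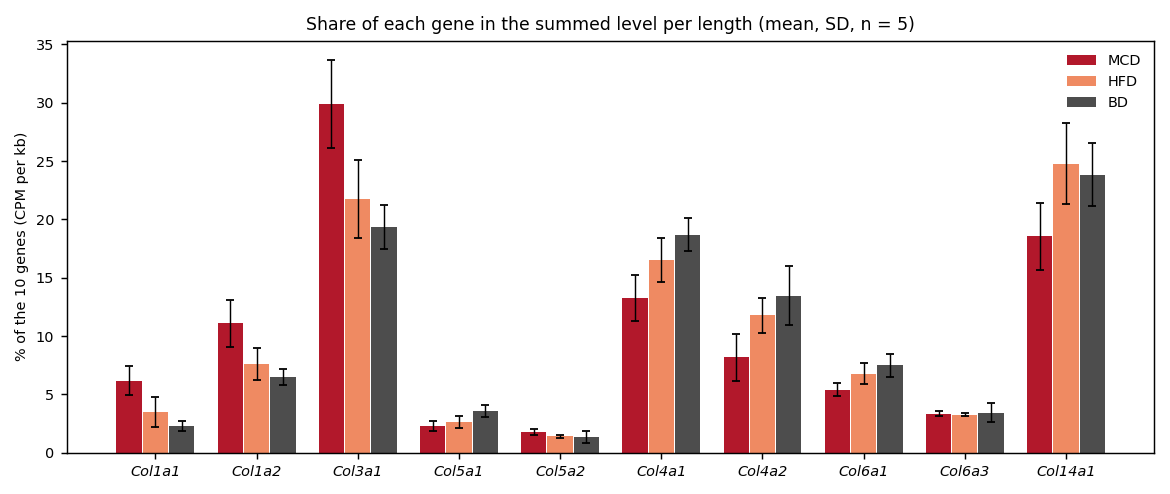
Share of each collagen gene in the summed CPM per kb of the 10 genes, in percent, as the mean (bar) and SD (error bar) of 5 libraries each for MCD, HFD and BD. Col3a1, Col1a2 and Col1a1 take larger shares in MCD livers, and Col4a1 and Col4a2 smaller ones.

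Ratios of 2 collagen genes within a library do not depend on library size or scaling, and 9 of them were compared between the diets by exact two-sided permutation tests on the log2 ratio. With 27 tests in all and 5 libraries against 5, the smallest p possible was 0.00794, and 9 tests had an adjusted p under 0.05. The ratio of Col1a1 to its partner chain Col1a2 on the log2 scale was -0.85, -1.15, -0.57, -0.52 and -0.39 in MCD, -1.04, -0.64, -1.43, -1.10 and -0.98 in HFD, and -1.47, -1.02, -1.25, -1.58 and -1.40 in BD libraries. It was higher by 0.64 in MCD than in BD livers (exact permutation, adjusted p = 0.0476), and MCD replicate 2 lay inside the BD range. The partner chains of the other types did not differ past the threshold in MCD against BD. Their log2 ratios differed by 0.23 for Col4a1 to Col4a2 (exact permutation, adjusted p = 0.149), by -1.11 for Col5a1 to Col5a2 (0.0584) and by -0.45 for Col6a1 to Col6a3 (0.0857).

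Relative to Col1a1, the levels of Col4a1, Col5a1, Col6a1, Col14a1 and Col3a1 were lower in MCD than in BD livers. Col1a1 had the largest rise of the 10 genes, so lower ratios to it follow from the fold changes given above. They do not mean that the other genes fell, since all of them rose. The log2 ratio of Col4a1 to Col1a1 was 1.34, 1.24, 1.83, 0.76 and 1.20 in MCD, 2.602, 1.57, 2.99, 2.96 and 2.20 in HFD, and 3.50, 2.88, 3.15, 3.31 and 3.03 in BD libraries. No MCD library reached the BD range. The difference between MCD and BD was -1.90 for Col4a1 to Col1a1, -2.05 for Col5a1 to Col1a1, -1.87 for Col6a1 to Col1a1, -1.77 for Col14a1 to Col1a1 and -0.77 for Col3a1 to Col1a1 (exact permutation, adjusted p = 0.0357 for each). Between MCD and HFD livers, the ratios of Col4a1 and of Col6a1 to Col1a1 were both lower by 1.19 in MCD (exact permutation, adjusted p = 0.0476 for each). Between HFD and BD livers, the ratio of Col5a1 to Col1a1 was lower by 0.97 in HFD (exact permutation, adjusted p = 0.0357), with values of 0.54, -1.01, 0.33, 0.66 and 0.31 in HFD and 1.505, 0.80, 1.03, 1.49 and 0.82 in BD libraries. All 5 HFD libraries lay below all 5 BD libraries for this ratio, HFD replicate 2 by the widest gap. Without HFD replicate 2 these differences were -1.41 and -1.39 for Col4a1 and Col6a1 to Col1a1 in MCD against HFD, and -0.67 for Col5a1 to Col1a1 in HFD against BD (exact permutation, adjusted p = 0.0357 for each). The ratios share Col1a1 as denominator and are not independent of each other. Leaving out any one of 7 libraries, MCD replicates 1, 2, 4 and 5 and BD replicates 1, 3 and 4, left 0 of the 27 tests past the threshold, in a design whose smallest p is then 0.0159.

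**Figure D4:**
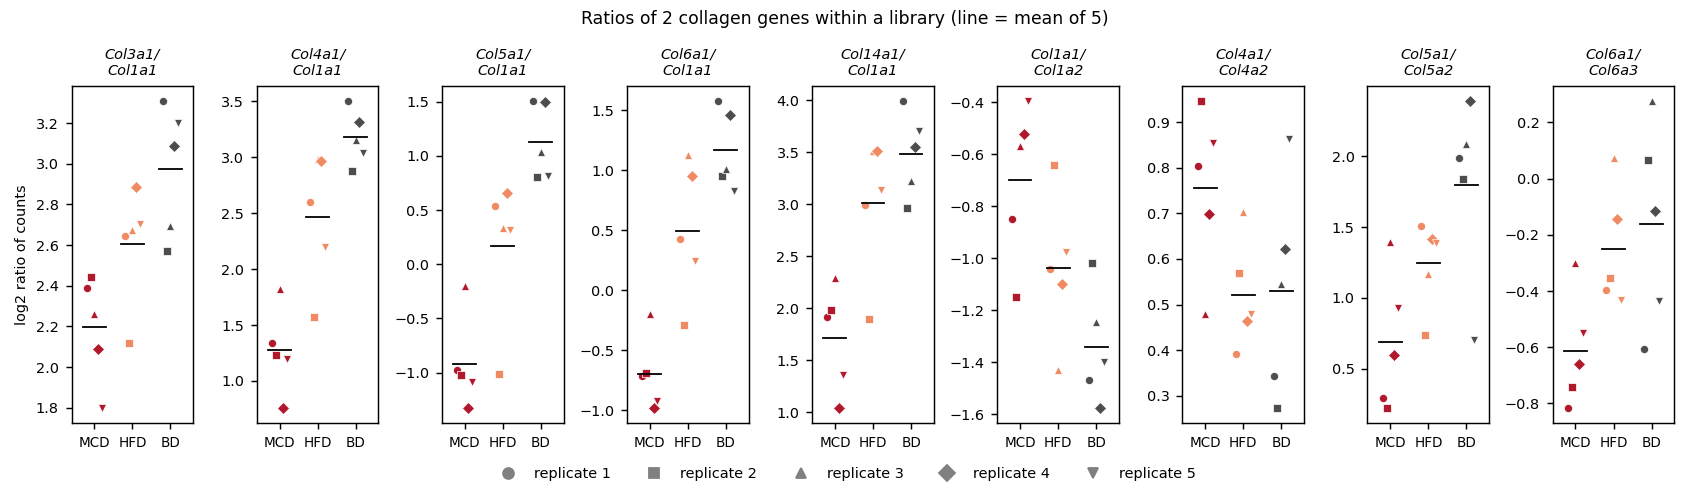
Log2 ratio of pairs of collagen genes in each library (points) by diet, MCD, HFD and BD from left to right, with the mean of 5 libraries as a line. The ratios with Col1a1 in the denominator are lower in MCD than in BD libraries without overlap, while the Col4a1 to Col4a2 ratio overlaps between diets.

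The count files list 34 further collagen genes, of which 12 were expressed highly enough to test and 3 (Col26a1, Col2a1 and Col9a1) had no count in any library. In MCD against BD livers 4 of the 12 rose and 2 fell, where 12.8% and 8.64% of all genes did so, and their median log2 fold change was -0.03. Col6a2, the third chain of the main type VI molecule, rose by 1.14 ± 0.26 (SE, log2, edgeR adjusted p = 0.00398), with 11.7 ± 4.44 CPM in MCD, 5.66 ± 1.93 CPM in HFD and 5.34 ± 1.06 CPM in BD livers. The fibril-associated Col16a1 rose by 1.21 (edgeR adjusted p = 0.00393) and Col12a1 by 0.91 (edgeR adjusted p = 0.0107), and the short-chain collagen Col8a1 rose by 1.08 (edgeR adjusted p = 0.0122). Col27a1, a fibrillar collagen known from cartilage, fell by 0.74 on the log2 scale (edgeR adjusted p = 0.0142), with 45.3 ± 13.8 CPM in MCD and 75.6 ± 18.0 CPM in BD livers, and Col20a1 fell by 1.33 (edgeR adjusted p = 0.0107). In MCD against HFD livers Col6a2 and Col8a1 rose, and Col27a1 and Col15a1 fell, where 0.927% of all genes were called lower, and in HFD against BD livers none of the 12 was called by edgeR, 2 having an unadjusted p under 0.05 and 1 being called by DESeq2. Col8a1, Col20a1 and Col15a1 were added to the named genes after their values were seen, and so was Col18a1. Col18a1, the source of endostatin and a known product of hepatocytes, had 1020 ± 363 CPM in MCD, 1265 ± 186 CPM in HFD and 1365 ± 333 CPM in BD livers, with an edgeR adjusted p of 0.211 in MCD against BD.

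The gene lists that follow are to be read beside the shares of all genes tested that edgeR called higher and lower, which were 12.8% and 8.64% in MCD against BD, 2.22% and 0.927% in MCD against HFD, and 3.65% and 3.27% in HFD against BD livers. List counts by unadjusted p cover both directions, and no matching share of all genes stands beside them. In the higher direction alone, 10.8% of all genes had an unadjusted edgeR p under 0.05 in HFD against BD, and 11.1% in MCD against HFD. The share in both directions is larger, so these list counts cannot be read as an excess. The list counts in MCD against HFD moved with the libraries and tools used. Over 27 alternatives they were 0 to 6 for synthesis, 0 to 2 for crosslinking, 1 to 5 for degradation and its inhibitors, 0 to 1 for receptors, 0 to 4 for basement membrane partners, 1 to 7 for fibril-binding proteins, 0 to 4 for growth factor signalling and 0 to 5 for the other collagens. Without HFD replicate 2, where 6.80% of all genes were called higher, they were 4, 2, 4, 1, 3, 6, 4 and 4 in the same order of lists.

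Among 26 genes that act in collagen synthesis, such as prolyl and lysyl hydroxylases, chaperones and propeptide proteases, 20 could be tested, and 7 rose and 1 fell in MCD against BD livers. Serpinh1, the collagen-specific chaperone, had 28.2 ± 4.19 CPM in MCD, 22.3 ± 5.31 CPM in HFD and 14.3 ± 0.829 CPM in BD livers, and was the one gene of the list called in HFD against BD (log2 fold change 0.62, edgeR adjusted p = 0.0202). That call was lost with limma-voom, with counts thinned to the shallowest library, and without HFD replicate 1, HFD replicate 2 or BD replicate 4. Adamts2, which removes the amino-terminal propeptide, had 11.3 ± 2.17 CPM in MCD and 4.23 ± 1.05 CPM in BD livers, and Pcolce, an enhancer of carboxy-terminal propeptide removal, had 13.2 ± 1.75 CPM in MCD and 7.49 ± 0.846 CPM in BD livers. In MCD against HFD 4 of the 20 rose, among them the lysyl hydroxylase Plod2 (2.65 ± 0.555 CPM in MCD and 0.942 ± 0.566 CPM in HFD livers) and Adamts2. The median log2 fold change of the list in MCD against BD was 0.14, near that of all genes.

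All 6 crosslinking enzymes were tested, and in MCD against BD livers 4 rose and 1 fell. Loxl2, a lysyl oxidase family member known to crosslink collagen, had 8.68 ± 1.93 CPM in MCD, 4.46 ± 0.891 CPM in HFD and 3.30 ± 0.429 CPM in BD livers. Loxl1, better known for elastin crosslinking, had 3.38 ± 1.20 CPM in MCD, 1.71 ± 0.423 CPM in HFD and 1.84 ± 0.263 CPM in BD livers. Both were also called in MCD against HFD. Loxl4 went the other way, with 2.92 ± 0.199 CPM in MCD, 2.65 ± 1.04 CPM in HFD and 10.7 ± 3.53 CPM in BD livers, and was the one gene of the list called in HFD against BD, where 3.27% of all genes were called lower (log2 fold change -2.02, edgeR adjusted p = 3.11e-05).

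Of 12 genes for collagen-degrading enzymes and their inhibitors 6 were tested, and 5 rose in MCD against BD and 4 in MCD against HFD livers. In HFD against BD none was called by edgeR, 2 having an unadjusted p under 0.05 and 1 being called by DESeq2. Mmp2, a gelatinase made by stromal cells, had 10.3 ± 3.37 CPM in MCD, 4.30 ± 1.26 CPM in HFD and 3.75 ± 0.602 CPM in BD livers. Mmp13, the main interstitial collagenase of mice, had 4.49 ± 1.71 CPM in MCD, 0.912 ± 1.14 CPM in HFD and 0.112 ± 0.136 CPM in BD livers, where the mean lay below the level of 3 counts in every BD library. Timp2, a metalloproteinase inhibitor, had 30.1 ± 7.39 CPM in MCD, 18.9 ± 1.65 CPM in HFD and 16.9 ± 3.55 CPM in BD livers. Mmp1a and Mmp1b had no count in any library.

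Of 10 collagen receptor genes 7 were tested, and 3 rose in MCD against BD, 0 in MCD against HFD and 2 in HFD against BD livers. In MCD against HFD 2 of the 7 had an unadjusted edgeR p under 0.05, and DESeq2 and limma-voom called 1 each. The receptor kinase Ddr2, which binds fibrillar collagen, had 12.0 ± 2.02 CPM in MCD, 9.16 ± 1.13 CPM in HFD and 6.46 ± 0.778 CPM in BD livers, and Lair1, an inhibitory receptor of leukocytes, had 6.16 ± 1.23, 4.74 ± 1.57 and 2.16 ± 0.841 CPM in the same order of diets. Both were called in HFD against BD (edgeR adjusted p = 0.0442 for Ddr2 and 0.0326 for Lair1) and by DESeq2. Neither was called by limma-voom, in the fit of these diets alone, or without HFD replicate 2 or any one of BD replicates 1 to 4. Mrc2, an endocytic receptor for collagen, had 4.45 ± 1.34 CPM in MCD and 1.61 ± 0.195 CPM in BD livers.

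Among 15 basement membrane partners of type IV collagen, all tested, 7 rose and 2 fell in MCD against BD livers and 1 rose in MCD against HFD. Nid1, which links laminin to type IV collagen, had 54.7 ± 16.4 CPM in MCD, 30.8 ± 12.2 CPM in HFD and 22.3 ± 2.02 CPM in BD livers, while Nid2 had 8.29 ± 1.90, 10.6 ± 1.19 and 15.8 ± 3.07 CPM in that order. The laminin chain Lamb1 had 21.6 ± 3.39 CPM in MCD, 15.1 ± 1.64 CPM in HFD and 12.7 ± 2.48 CPM in BD livers. In HFD against BD Lamb3 rose (log2 fold change 1.44, edgeR adjusted p = 0.00323) and Nid2 fell (-0.58, edgeR adjusted p = 0.0389), and 1 of the 15 was called, higher in HFD, without HFD replicate 2. Of 12 fibril-binding proteins 10 were tested, and 7 rose in MCD against BD, 5 in MCD against HFD and 0 in HFD against BD livers, where 3 had an unadjusted edgeR p under 0.05, DESeq2 called 1 and limma-voom 0. The proteoglycans Bgn and Prelp had 233 ± 44.1 and 128.2 ± 15.8 CPM in MCD, against 127.3 ± 13.3 and 75.4 ± 9.64 CPM in BD livers, and the matricellular protein Sparc had 155 ± 37.0 CPM in MCD, 71.5 ± 13.2 CPM in HFD and 65.8 ± 10.5 CPM in BD livers.

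All 16 genes of transforming growth factor beta signalling, a pathway known to induce collagen transcription, were tested, and 6 rose in MCD against BD, 1 in MCD against HFD and 1 in HFD against BD livers. Of the listed genes, Ltbp2 had 3.57 ± 1.38 CPM in MCD, 1.82 ± 0.612 CPM in HFD and 1.19 ± 0.311 CPM in BD livers. The receptor Tgfbr2 had 58.7 ± 9.03 CPM in MCD, 54.02 ± 9.19 CPM in HFD and 38.3 ± 3.54 CPM in BD livers and was called in HFD against BD (log2 fold change 0.49, edgeR adjusted p = 0.0210). In HFD against BD 6 of the 16 had an unadjusted edgeR p under 0.05, in either direction. DESeq2 called 2 higher and 2 lower, where it called 621 and 495 of all genes. Limma-voom called 1 in each direction, where it called 376 higher and 403 lower of all genes. No gene of this list was called by edgeR in HFD against BD without HFD replicate 2, BD replicate 2 or BD replicate 4.

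**Figure D5:**
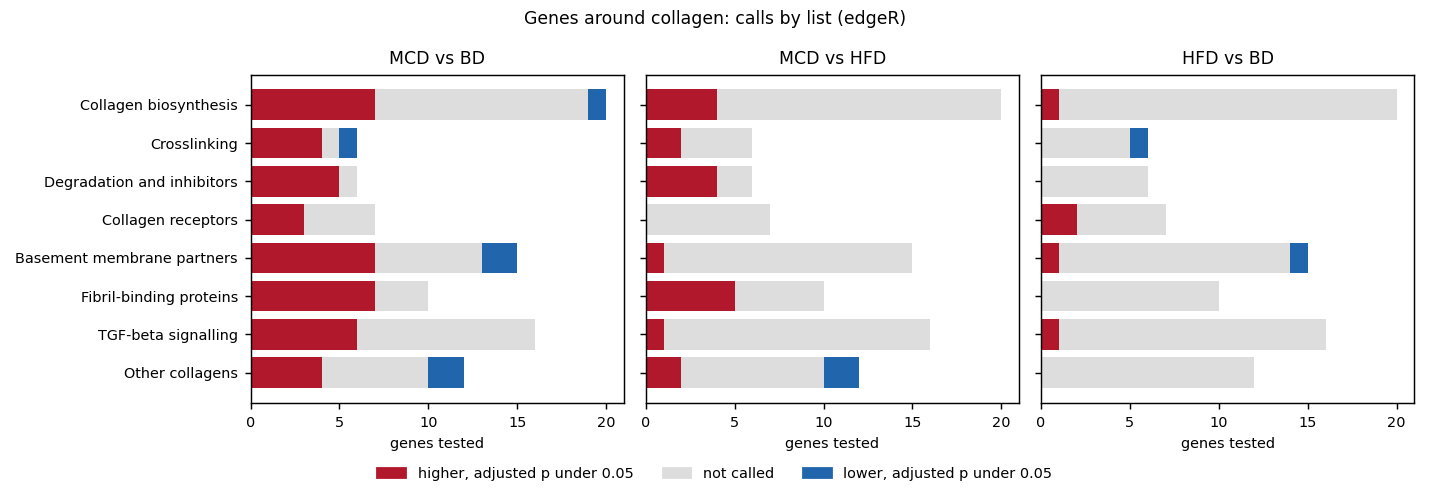
Number of tested genes per list called higher (red), called lower (blue) or not called (grey) by edgeR at an adjusted p under 0.05, for MCD against BD, MCD against HFD and HFD against BD. Calls are most frequent in MCD against BD, for example 5 of 6 genes for collagen-degrading enzymes and their inhibitors and 7 of 10 fibril-binding genes.

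Markers of stellate cells, myofibroblasts, portal fibroblasts, macrophages and endothelial cells were called higher in MCD than in BD livers more often than the 12.8% of all genes were. The part of these cell types in the result was not tested. All 10 stellate cell markers were tested and 7 rose in MCD against BD, with a summed level of 335 to 411 CPM in MCD, 303 to 351 CPM in HFD and 266 to 325 CPM in BD libraries. Lrat, the retinol-storing enzyme of stellate cells, had 37.0 ± 6.45 CPM in MCD, 26.9 ± 4.39 CPM in HFD and 22.0 ± 3.53 CPM in BD livers, and Pdgfrb, a receptor of stellate cells and pericytes, had 27.1 ± 5.30, 15.05 ± 3.30 and 14.0 ± 0.936 CPM in that order. Of 5 myofibroblast markers 3 rose, with sums of 49.7 to 92.4 CPM in MCD, 34.3 to 54.8 CPM in HFD and 33.8 to 45.4 CPM in BD libraries. Acta2, the smooth muscle actin of myofibroblasts, had 9.42 ± 4.27 CPM in MCD, 6.71 ± 1.75 CPM in HFD and 5.14 ± 1.74 CPM in BD livers. Its call in MCD against BD lay near the threshold (edgeR adjusted p = 0.0468). Of 7 portal fibroblast markers 5 were tested and all 5 rose, with sums of 20.3 to 40.1 CPM in MCD, 9.84 to 27.5 CPM in HFD and 9.36 to 13.5 CPM in BD libraries. HFD replicate 2 had the highest sum of the HFD libraries for the stellate, myofibroblast and portal fibroblast lists, 351, 54.8 and 27.5 CPM.

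All 6 macrophage markers rose in MCD against BD, with sums of 326 to 486 CPM in MCD, 271 to 389 CPM in HFD and 180 to 322 CPM in BD libraries, and Cd68 and Cd5l were also called in HFD against BD. Of 9 endothelial markers 3 rose, with sums of 386 to 413 CPM in MCD, 309 to 359 CPM in HFD and 310 to 405 CPM in BD libraries. Of 5 cholangiocyte markers 3 were tested and 1, Sox9, fell, with 5.77 ± 0.898 CPM in MCD, 5.48 ± 2.08 CPM in HFD and 10.5 ± 2.33 CPM in BD livers. Epcam and Krt19, the other tested markers, went the other way without a call. Their log2 fold changes in MCD against BD were 0.84 (edgeR adjusted p = 0.190) and 0.13 (edgeR adjusted p = 0.808). The list summed to 8.02 to 17.0 CPM in MCD, 7.41 to 13.1 CPM in HFD and 13.05 to 18.6 CPM in BD libraries. The 2 tested smooth muscle markers of 5 and the 1 tested mesothelial marker of 5 gave no call by edgeR, DESeq2 or limma-voom in MCD against BD, none having an unadjusted edgeR p under 0.05. The smooth muscle sums were 8.82 to 23.1 CPM in MCD, 10.4 to 15.4 CPM in HFD and 11.7 to 12.6 CPM in BD, and the mesothelial sums 1.96 to 4.71, 0.421 to 3.09 and 0.775 to 3.41 CPM in that order. No marker of any of these lists was at 0 in all libraries. Of the 6 hepatocyte markers Fgb and Hnf4a fell in MCD against BD, and Fgb fell in MCD against HFD.

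The genes whose standardised log2 CPM over the 15 libraries lay nearest to the mean profile of each collagen class were found among all other genes tested, with the mean absolute difference in SD units as the measure. Nearest to the fibrillar profile were Ifi27l2b (0.183), Gpnmb (0.195) and Arhgap25 (0.200), where the median gene was at 1.14. Gpnmb, a glycoprotein of lipid-laden macrophages, had 15.7 ± 8.82 CPM in MCD, 2.12 ± 3.88 CPM in HFD and 0.186 ± 0.228 CPM in BD livers. Nearest to the basement membrane profile were Trpm4 (0.259), Col6a2 (0.271) and Tnip1 (0.287), and nearest to the beaded-filament profile Ifi27l2b (0.236), Eln (0.240) and Iqgap1 (0.241). Eln encodes elastin and had 9.43 ± 3.03 CPM in MCD, 3.75 ± 1.81 CPM in HFD and 3.49 ± 0.437 CPM in BD livers. Nearest to the Col14a1 profile were Enc1 (0.181), Inpp5d (0.188) and Klf6 (0.224), where the median gene was at 1.15. These are likenesses over libraries that share diet and depth, given as a description.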

How the data were processed

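RNA-seq libraries of polyadenylated RNA from the left liver lobe of male mice on 3 diets were analysed, 5 per diet. The deposited files hold the authors' counts of reads per gene, one file per library. Per the submitters' processing notes, Trimmomatic, TopHat2 (version 2.0.13), HTSeq and DESeq2 were used on GRCm38 (mm10), and per the labels' protocols the library kit was stranded. For annotation, counting mode and strand setting, nothing is given in the sources used here. The 5 closing lines of each file, which name no gene, were left out of library sizes. Reads outside annotated features came to 12.7% to 17.0% and ambiguous reads to 0.567% to 0.841% of these reads and the gene counts together. Gene counts ranged from 3704642 to 23131089, and low depth makes the values of genes such as Col5a2, with as few as 10 counts in a library, less precise.

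The counts were tested with edgeR 4.0.16 (R 4.3.3; TMM factors, filterByExpr by diet with a minimum count of 10, robust quasi-likelihood F test, two-sided) in 1 fit of all 15 libraries without covariates, with levels as CPM scaled by TMM factors and Benjamini-Hochberg adjustment over 12193 genes and a threshold of 0.05. DESeq2 1.42.0, limma-voom (limma 3.58.1), other scalings and filters, thinned counts, left-out libraries and a covariate served as alternatives. The main edgeR fit was also run on simulated counts with known changes. The simulation held no outlying library and no effect of multiply aligned reads, so it cannot speak to either. Ratios used a prior count of 0.5 and exact permutation tests over samples (scipy 1.17.1), adjusted over 27 tests. The chi-square per degree of freedom of the counts of 2 libraries of a diet was 7.33 to 65.0 over 30 pairs, so each pair differed beyond sampling noise.

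The members and the gene lists were chosen with earlier results of these data known. From each list, the 3 genes with the smallest p in MCD against BD, up to 3 called in HFD against BD and up to 2 called in MCD against HFD were eligible to be named. The values of 1 eligible gene are not reported here. Of 155 list entries 155 were found in the files, 7 of them under an older symbol. Gene positions and transcript lengths come from GENCODE M21 (GRCm38), and promoter windows from RefSeq (GRCm38.p6), which held 7 of the 10 genes. Protein sequences were not used here.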

Additional observations from a re-analysis of the deposited data

Results flagged for a closer look

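In 57 groups of 5 libraries, the highest or lowest library was compared with the others by its gap to the nearest library over the whole range of the group. Of these, 2 groups exceeded the critical value, where chance gives about 1 in 20, so the number flagged is no more than chance gives. Col1a1 was at 26.5 CPM in HFD replicate 2, with the next HFD library at 10.5 CPM. The log2 ratio of Col5a1 to Col1a1 was -1.01 in the same library, with the next HFD library at 0.31. Both values share the Col1a1 count of that library, which also had the highest summed stellate, myofibroblast and portal fibroblast markers among the HFD libraries and the fewest multiply aligned reads per gene count.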

How the results depend on the processing

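The 10 calls in MCD against BD ranged from 8 to 10 genes over 27 alternatives, while those in MCD against HFD ranged from 0 to 9. In MCD against HFD the count of collagen genes called was 2 in the fit of the diets compared alone, 0 with the alignment covariate and 1 to 9 with 1 library left out. The count of all genes called there was 701 with DESeq2, 220 with at least 5 CPM in 5 libraries, 224 with the diets compared alone, 155 with thinned counts, 82 with the covariate, 1365 without HFD replicate 2 and MCD replicate 3 together, and 74 to 1248 with 1 library left out, against 384. In HFD against BD DESeq2 called 1 collagen gene, and 0 to 1 were called with 1 library left out, where 293 to 507 genes in all were called higher. Without a count filter Col1a1 (edgeR adjusted p = 0.0514) and Col4a1 (0.0620) lost their call in MCD against HFD. The log2 fold change of Col5a1 in HFD against BD changed sign without scaling factors (0.0488), under the stricter filter (0.00607) and over the left-out libraries (-0.142 to 0.0836), and so did the log2 ratios of Col4a1 to Col4a2 (-0.0718 to 0.0755) and Col6a1 to Col6a3 (-0.198 to 0.0223) in HFD against BD over the left-out libraries. Omitting scaling factors moved the median of all genes in MCD against BD to 0.12. The number of ratio tests past the threshold was 0 to 13 with 1 library left out and 0 without HFD replicate 2 and MCD replicate 3, where fewer libraries raise the smallest p. Over the same alternatives the calls in MCD against BD, in either direction, were 4 to 11 for synthesis (8), 2 to 5 for crosslinking (5), 3 to 6 for degradation and its inhibitors (5), 2 to 4 for receptors (3), 4 to 9 for basement membrane partners (9), 5 to 7 for fibril-binding proteins (7), 4 to 7 for growth factor signalling (6) and 0 to 7 for the other collagens (6), with the values first reported in parentheses. For the marker lists they were 4 to 7 for stellate cells (7), 2 to 3 for myofibroblasts (3) and 2 to 5 for portal fibroblasts (5). They were 4 to 6 for macrophages (6), 2 to 5 for endothelial cells (3), 0 to 2 for cholangiocytes (1) and 1 to 4 for hepatocytes (2). Of all genes, 1801 to 2817 were called there (2610). In HFD against BD the list calls were 0 to 1 for synthesis (1), 0 to 2 for receptors (2), 1 to 2 for basement membrane partners (2) and 0 to 4 for growth factor signalling (1). The causes of the other changes were not tested.

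No paired analysis was possible because the labels give no replicate numbers that link libraries of different diets. Depth limits the genes with few counts, such as Col5a2 and Col1a1 in BD livers.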
